A study of Mus musculus with 2 samples.

Results

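Glycolysis, the pentose phosphate pathway and the citrate cycle were described here by 40 mouse genes, of 43346 annotated genes in the tables: 2 glucose transporters, 17 genes of glycolysis and its side branches, 7 of the pentose phosphate pathway, and 14 of pyruvate dehydrogenase and the citrate cycle. The genes were named enzymes and transporters, matched by gene identifier to their GENCODE symbol, and all 40 were found in both libraries. The cells were megakaryocyte-erythroid progenitors (MEP), bone marrow precursors of red cells and platelets, as primary cells of male C57BL/6J mice of 5 to 6 weeks. The study held 1 group of 2 libraries, labelled replicate 1 and replicate 2, each made from 100 cells as total RNA above 200 bases with spike-in RNAs. The labels name no treatment, transgene or second genotype, and they give both biosamples the same donor record. Whether the libraries came from separate animals cannot be told from that record, and the source of the spread between libraries was not tested. With 1 group there was no condition to test, and each value is given for both libraries.

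Glycolysis splits glucose into pyruvate and yields ATP without oxygen, and lactate dehydrogenase turns pyruvate into lactate. The pentose phosphate pathway branches off after hexokinase and supplies NADPH and ribose for nucleotides, while pyruvate dehydrogenase feeds the citrate cycle in mitochondria. Mature red cells lose their mitochondria and live on glycolysis, and inherited defects of several of these enzymes, pyruvate kinase among them, cause haemolytic anaemia in humans. Several steps have isoenzymes from separate genes, and red cells are known to use the R type of pyruvate kinase, made from Pklr.

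Levels are given as TPM, each gene's share of all transcripts after correction for effective length, which can be set side by side between genes. A gene's level sums all its transcripts, and those not typed as protein-coding took over 20% of the TPM in at least 1 library for 11 of the 40 genes. The same share over all genes was not computed. The libraries held 30016974 and 51510347 expected counts in replicates 1 and 2, of which the 40 genes took 103036 and 211035 counts. These were 0.762% and 0.818% of the counts of protein-coding nuclear genes. Of 12 markers of MEP cells, all 12 were at 10 TPM or more in both libraries. Of 15 neutrophil and monocyte markers, 15 were higher in replicate 1, with summed levels of 1937 TPM in replicate 1, against 8.67 TPM in replicate 2, where 9 of them, Mpo, Elane and Csf1r included, had 0 counts. Of 10 B-lineage markers, 10 were higher in replicate 2, with summed levels of 10.1 TPM in replicate 1, against 145 TPM in replicate 2, and Vpreb1 and Ms4a1 had 0 counts in replicate 1. Summed levels in replicates 1 and 2 were 52.8 and 38.5 TPM for 8 T and NK markers, 9.63 and 15.2 TPM for 7 megakaryocyte markers, 360.1 and 431.5 TPM for 6 late red cell genes, and 4.22 and 3.95 TPM for Cd34, Ly6a, Fcgr3 and Il7r, which MEP sorting is known to select against. Of the late red cell genes, Slc4a1 was at 0.18 and 0.21 TPM and Alas2 at 0.88 and 0.07 TPM. The rest of that sum came from the globin genes Hba-a1, Hba-a2, Hbb-bt and Hbb-bs. Of the genes selected against, Fcgr3 was at 2.63 and 0.68 TPM and Cd34 at 0.48 and 0 TPM. Il7r, at 1.04 and 2.60 TPM, and Ly6a, at 0.07 and 0.67 TPM, went the other way. In such bulk libraries fewer cells of a type and less RNA per cell cannot be told apart. Of 4 marker genes of muscle or liver, tissues whose isoenzymes are among the 40, Ckm, Acta1 and Alb had 0 counts in both libraries, and Apoa1 had 4 counts (0.20 TPM) in replicate 1 and 0 in replicate 2.

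Of the 40 genes, 33 (82.5%) were at 10 TPM or more in both libraries, against 24.7% of 21461 protein-coding nuclear genes. The remaining 7 were below 10 TPM in both: the transporters Slc2a1 and Slc2a3, the isoenzymes Hk2, Pfkp, Pkm and Ldhb, and Bpgm. The nearest values to that threshold were 12.1 TPM for Pgam1 in replicate 2 on the upper side, and 8.87 TPM for Slc2a3 in replicate 2 on the lower side. Median levels were 58.8 and 67.2 TPM for glycolysis, 43.3 and 59.7 TPM for the pentose phosphate genes, and 49.3 and 59.4 TPM for pyruvate dehydrogenase and citrate cycle genes, in replicates 1 and 2. As means of both libraries the pathway medians were 63.0 ± 5.94, 51.5 ± 11.6 and 54.4 ± 7.10 TPM (SD, n = 2), so the 3 pathways differed by about as much as the libraries did. The median of protein-coding nuclear genes was 0.38 and 0.36 TPM, and of those at 10 TPM or more in both libraries it was 24.9 and 29.2 TPM. The spread lay among the members: glycolysis genes ran from 0.56 to 376 TPM in replicate 1 and from 1.48 to 637 TPM in replicate 2, whereas the citrate cycle genes ran from 22.5 to 183 TPM and from 30.9 to 207 TPM.

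**Figure D1:**
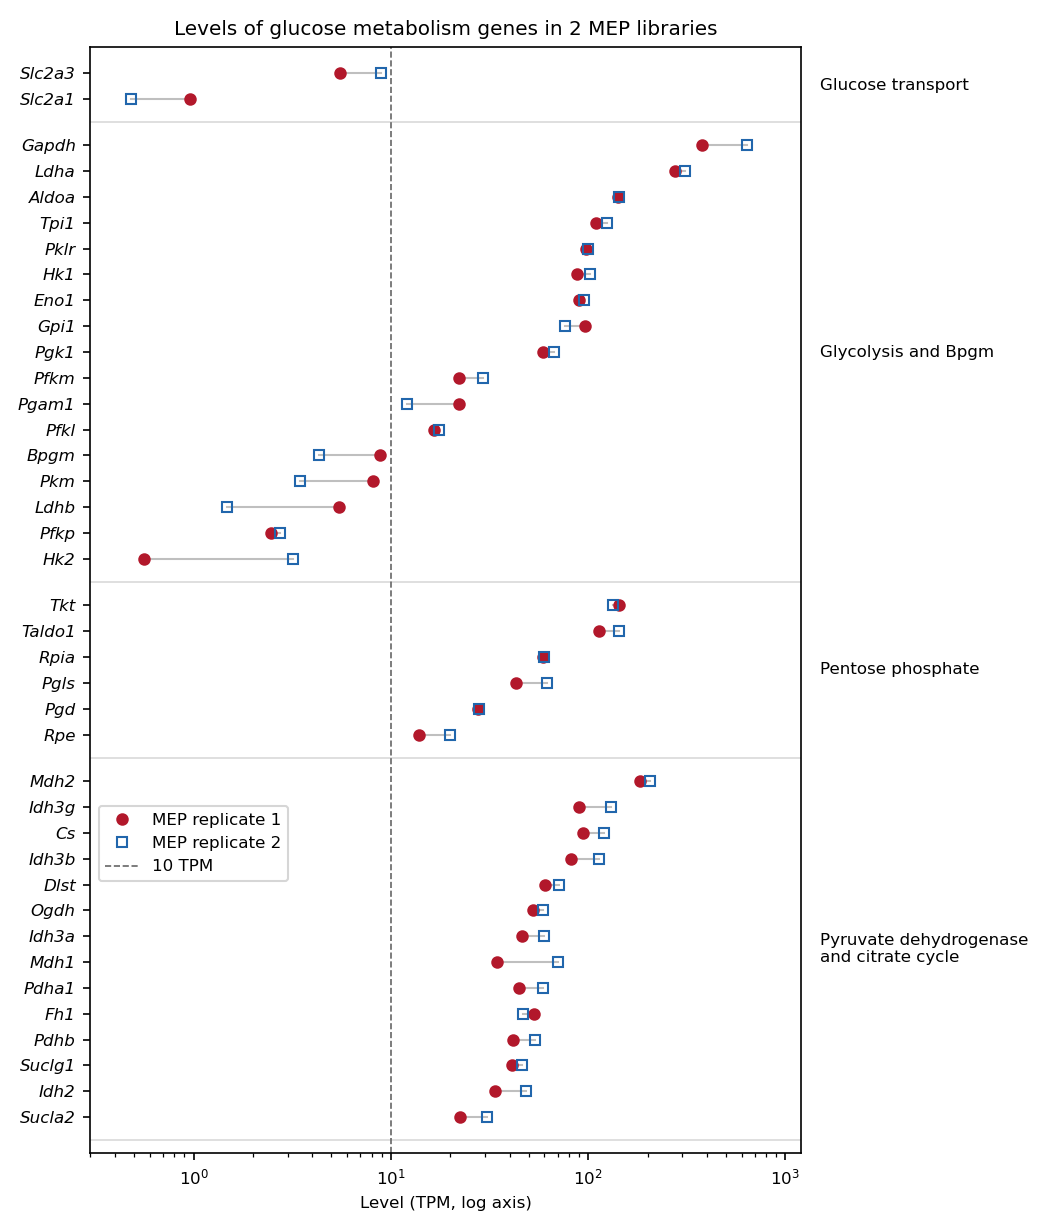
Level of 39 of the 40 genes in TPM on a log axis, grouped by pathway and ordered by mean, with filled circles for MEP replicate 1, open squares for replicate 2 and a dashed line at 10 TPM. All pentose phosphate and citrate cycle genes shown lie right of the line, and the 7 genes left of it are both transporters and 5 glycolysis genes.

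Both glucose transporters of the set were low. Slc2a1, which encodes GLUT1, the main glucose carrier of human red cells, was at 0.96 TPM (36 counts) in replicate 1, against 0.48 TPM (34 counts) in replicate 2. Slc2a3, which encodes the high-affinity carrier GLUT3, was at 5.50 TPM (555 counts) and 8.87 TPM (1208 counts). Slc2a1 was thus below Slc2a3 in both libraries, at a TPM ratio of 0.175 (95% exact interval 0.122 to 0.246) in replicate 1 and 0.0541 (0.0376 to 0.0766) in replicate 2. These intervals, and all others given here, cover counting error only. Of 8 further genes of this transporter family, none reached 10 TPM in both libraries and 4 had 0 counts in both, while Slc2a8, which encodes GLUT8, was at 6.45 and 12.8 TPM.

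Hexokinase, which traps glucose in the cell by phosphorylation, was carried almost wholly by Hk1. Hk1 (chromosome 10, 62268855 to 62379908, minus strand) was at 87.9 TPM in replicate 1, against 102 TPM in replicate 2, and made up 98.2% and 97.0% of the summed TPM of the hexokinase genes. Hk2, the insulin- and hypoxia-responsive isoenzyme of muscle and fat, was at 0.56 TPM (66 counts) in replicate 1, against 3.20 TPM (326 counts) in replicate 2. Hk1 was above Hk2 in both libraries, by a TPM ratio of 157 (123.5 to 204) in replicate 1 and 31.9 (28.5 to 35.7) in replicate 2. Hk3, a myeloid hexokinase, had 70 counts in replicate 1 and 0 in replicate 2, which allows at most 3 counts. Hkdc1, another gene of the family, had 0 counts in both libraries.

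Phosphofructokinase, the committing step of glycolysis, works as a tetramer of subunits from 3 genes, and here the muscle and liver subunits were both present. Pfkm, named for muscle, was at 22.3 TPM in replicate 1, against 29.5 TPM in replicate 2, and Pfkl, named for liver, was at 16.6 and 17.5 TPM. Pfkp, named for platelets, was at 2.48 TPM (189 counts) and 2.74 TPM (269 counts). The TPM ratio of Pfkl over Pfkm was 0.743 (0.685 to 0.805) in replicate 1 and 0.594 (0.561 to 0.628) in replicate 2. That of Pfkp over Pfkl was 0.150 (0.128 to 0.175) and 0.157 (0.137 to 0.178). The order Pfkm, Pfkl, Pfkp was the same in both libraries, and Pfkp took 6.00% and 5.51% of the summed TPM of the 3 genes. Most of the Pfkp TPM in replicate 2 was not on coding transcripts: noncoding ones held 47.2% of it in replicate 1, against 94.5% in replicate 2, and the coding transcripts were at 1.31 and 0.15 TPM. Among coding transcripts alone, Pfkp took 3.54% and 0.338% of the sum of the 3 genes.

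Pyruvate kinase, which makes the ATP of the last step, was mainly Pklr, the gene of the liver and red cell types. Pklr (chromosome 3, 89136142 to 89146784, plus strand) was at 97.1 TPM (4397 counts) in replicate 1, against 99.7 TPM (9689 counts) in replicate 2. Pkm (chromosome 9, 59656368 to 59679375, plus strand), the gene of the muscle and proliferation types, was at 8.11 TPM (409 counts) and 3.47 TPM (304 counts). The TPM ratio of Pkm over Pklr was 0.0836 (0.0753 to 0.0925) in replicate 1 and 0.0348 (0.0310 to 0.0391) in replicate 2, so Pklr was the higher gene in both, and Pkm took 7.71% and 3.36% of their sum.

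Lactate dehydrogenase was carried by the A subunit. Ldha was at 276 TPM in replicate 1, against 310 TPM in replicate 2, and Ldhb, the heart-type subunit, was at 5.49 TPM (97 counts) and 1.48 TPM (65 counts). The TPM ratio of Ldha over Ldhb was 50.3 (41.2 to 62.1) and 209 (164 to 272), and Ldhc, the testis subunit, had 0 counts in both libraries. In all 4 isoenzyme families the order of the genes by TPM was shared by both libraries, apart from Hk2 and Hk3, and the ratios to the minor genes Hk2, Pkm and Ldhb differed between libraries by more than counting error.

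**Figure D2:**
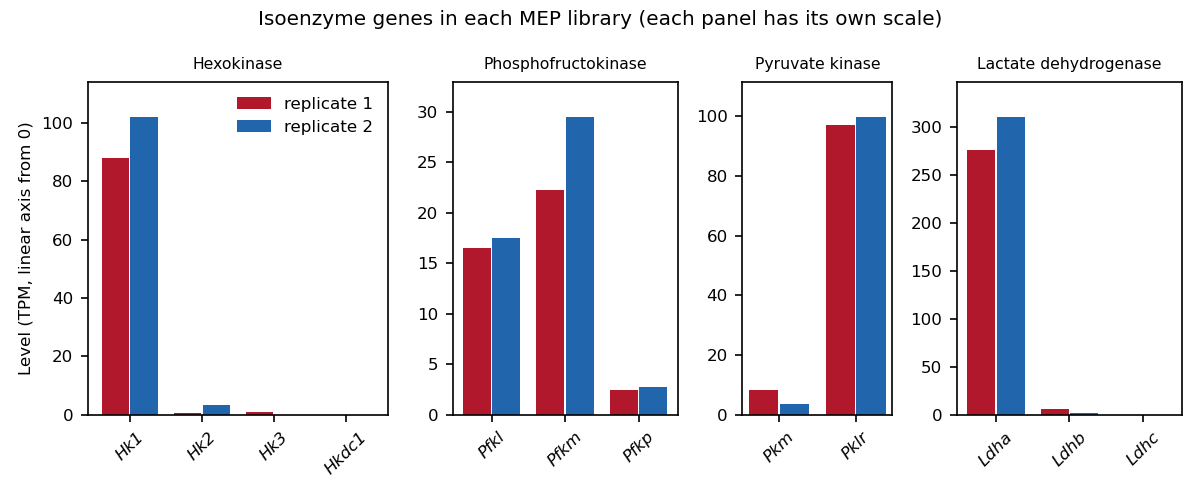
Level in TPM, on linear axes that start at 0 and differ between panels, of the genes of each isoenzyme family, with the left bar of each pair for MEP replicate 1 and the right bar for replicate 2. Hk1, Pklr and Ldha stand far above their partners in both libraries, whereas Pfkl and Pfkm lie near each other.

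Pkm makes its muscle (M1) and proliferation (M2) types by using either of a pair of mutually exclusive exons. They are shown because they tell the 2 types apart. They have the same length, 167 bases, and hold the same base at 103 positions. Capitals mark the 64 positions at which they differ; both are read from GENCODE M21 transcripts on GRCm38, plus strand. The M2 exon lies at chr9:59675568-59675734 and the M1 exon upstream of it at chr9:59675029-59675195.
Pkm M2 exon: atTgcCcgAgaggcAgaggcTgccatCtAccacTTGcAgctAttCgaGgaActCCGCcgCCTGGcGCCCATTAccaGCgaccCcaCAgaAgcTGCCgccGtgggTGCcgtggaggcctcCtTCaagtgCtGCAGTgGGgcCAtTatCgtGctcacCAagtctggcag
Pkm M1 exon: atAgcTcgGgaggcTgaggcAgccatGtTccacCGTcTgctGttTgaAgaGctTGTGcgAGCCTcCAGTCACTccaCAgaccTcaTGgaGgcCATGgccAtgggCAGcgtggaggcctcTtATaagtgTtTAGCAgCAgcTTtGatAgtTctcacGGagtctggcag
All 409 expected counts of Pkm in replicate 1, and all 304 in replicate 2, were assigned to the transcript with the M2 exon. The transcript with the M1 exon was assigned 0. These are the quantifier's counts over the whole transcript, and reads over the 167 bases of the exon were not counted apart. The authors' posterior mean TPM, which keeps a prior share for each transcript, put 96.5% and 97.0% on the M2 transcript. The deposited transcripts carry older versions of these identifiers, and the M1 transcript had 2432 bases there against 2041 in M21, so the exon content was taken from the newer record.

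Pklr has its own pair of first exons, and the upstream one is known as the start of the red cell (R) type and the downstream one as that of the liver (L) type. Their coding parts, with the start codon in capitals, show how the proteins differ at their beginning: 100 coding bases at chr3:89136183-89136282 against 7 at chr3:89136631-89136637, on GRCm38 and the plus strand.
Pklr upstream first exon, coding part: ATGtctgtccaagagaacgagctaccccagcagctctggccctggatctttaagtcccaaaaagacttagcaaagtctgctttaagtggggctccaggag
Pklr downstream first exon, coding part: ATGgaag
Transcripts with the upstream first exon took 27.5% of the gene's TPM in replicate 1 and 30.8% in replicate 2, but 2.80% and 24.7% of its expected counts. In replicate 1 this share rested on a noncoding transcript of 345 bases with 123 counts, and the full-length transcript with that exon was listed at 0 TPM. In replicate 2 it rested mainly on the full-length transcript, at 23.1 TPM with 2340 counts. The transcript with the downstream first exon was at 70.3 and 69.0 TPM in replicates 1 and 2. The annotation gives it a last exon that runs 190 bases past that of the upstream form, so reads from that stretch can only be assigned to it, whatever first exon their RNA had. The first exon in use was therefore not settled by these shares. The effective length of the gene, 2062 bases in replicate 1 and 2516 bases in replicate 2, moved with the split.

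The bases before the Pklr starts are shown because Pklr is the highest pyruvate kinase gene here and its upstream start is known as the erythroid one. They come from RefSeq promoter windows on GRCm38.p6, plus strand, at chr3:89135892-89136141 and chr3:89136373-89136571, and end at the last base before each first exon.
Pklr promoter, upstream start: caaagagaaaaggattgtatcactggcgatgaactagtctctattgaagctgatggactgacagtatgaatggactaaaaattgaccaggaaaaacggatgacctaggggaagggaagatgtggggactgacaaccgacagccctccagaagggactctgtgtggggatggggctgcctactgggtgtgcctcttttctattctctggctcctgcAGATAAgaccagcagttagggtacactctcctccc
Pklr promoter, downstream start: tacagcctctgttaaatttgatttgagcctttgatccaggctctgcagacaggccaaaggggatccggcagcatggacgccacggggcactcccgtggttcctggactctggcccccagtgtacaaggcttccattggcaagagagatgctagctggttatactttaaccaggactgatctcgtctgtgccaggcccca
Capitals mark AGATAA, a form of the motif bound by GATA factors, searched on both strands. The upstream window held 1 match, which began 35 bases before the first exon, and the downstream window held 0. Among 16317 protein-coding nuclear genes with windows of 250 bases, 9.996% had a match in at least 1 window, and so had 2 of the 38 members with a window, Pklr and Pfkm. A match is a description of these letters and no evidence of binding.

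Hk1 and Pfkm also start at several first exons. The transcript that begins at position 62340542 of chromosome 10 took 35.7% and 37.1% of the TPM of Hk1 in replicates 1 and 2, and the one that begins at 62358362 took 29.6% and 29.6%. A transcript of 896 bases that begins at 62327767 took 24.3% and 24.7% of the TPM, but 6.20% of the counts in each library. Transcripts with a first exon 2180 bases upstream of position 62340542 took 10.4% and 6.04% of the TPM. All these shares, and those of Pfkm, are as the quantifier assigned them, and reads over the first exons were not counted apart. The larger shares of Hk1 were alike in both libraries. For Pfkm they were not: the transcript with the upstream first exon, at position 98092589 of chromosome 15, took 44.8% of the gene's TPM in replicate 1 and 100% in replicate 2, and the transcript that starts at 98108466 took the rest. Of the 35 members with several transcripts, 27 had the same leading transcript in both libraries, and 8 did not: Slc2a1, Hk2, Pfkm, Pfkp, Gapdh, Ldhb, Bpgm and Mdh2. The leading transcripts of Gapdh had 1273 bases in replicate 1 and 1272 bases in replicate 2. Those of Mdh2 took 53.4% and 43.7% of its TPM in replicate 1, against 47.1% and 49.6% in replicate 2. The same share over all genes with several transcripts was not computed, so the count says nothing particular of the members.

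**Figure D3:**
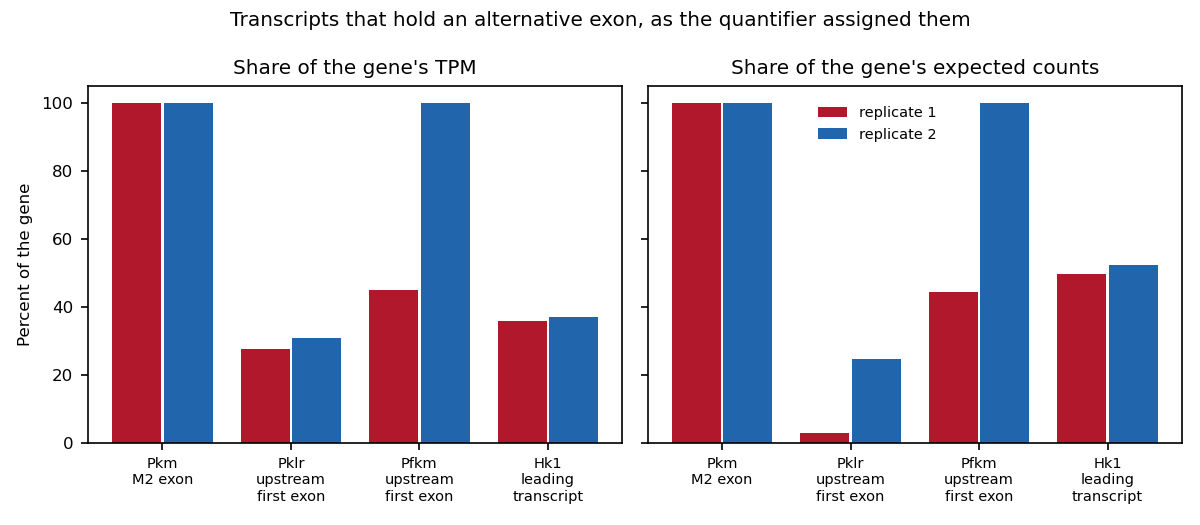
Share of each gene's TPM (left) and expected counts (right), in percent, that was assigned to transcripts with the named exon, with the left bar of each pair for MEP replicate 1 and the right bar for replicate 2. The Hk1 bars are for its leading transcript, the one that begins at position 62340542. The Pkm bars reach 100% throughout, and the Pklr bars fall to 2.80% in replicate 1 when counts replace TPM.

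The remaining steps of glycolysis held the highest gene of the set. Gapdh, the dehydrogenase that makes the first NADH, was at 376 TPM in replicate 1, against 637 TPM in replicate 2, the highest of the 40 in both. Aldoa, which splits the sugar, was at 141 and 143 TPM, and Tpi1, which interconverts the triose products, was at 109 and 124 TPM. Gapdh, Ldha, Mdh2 and Aldoa together made up 35.7% and 38.8% of the summed TPM of the 40 genes. Gpi1, the isomerase after hexokinase, was at 96.2 and 76.5 TPM, and Eno1, the ubiquitous enolase, was at 89.8 and 95.9 TPM. Pgk1, the first ATP-making kinase, was at 58.8 and 67.2 TPM. Pgam1, the mutase that follows Pgk1, was lower, at 22.1 TPM in replicate 1, against 12.1 TPM in replicate 2. Bpgm, which makes the bisphosphoglycerate that lowers the oxygen affinity of haemoglobin in red cells, was at 8.77 TPM (235 counts) in replicate 1, against 4.31 TPM (342 counts) in replicate 2. Thus each shared step from Gpi1 to Eno1 had a gene at 10 TPM or more in both libraries, while Bpgm, the red cell side branch, was below it.

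Partner genes of these steps were mostly low. Aldoc, the brain aldolase, was at 1.00 TPM in replicate 1, against 0.19 TPM in replicate 2. Eno3, the muscle enolase, was at 6.98 and 15.8 TPM, 7.19% and 14.2% of the summed TPM of the 3 enolase genes. Eno2, the neuronal enolase, was at 0.31 TPM in replicate 1 and had 0 counts in replicate 2. Pgk2 had 0 counts in both libraries, and Pgam2 had 0 and 3.

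Some members have near-identical copies, which could split their reads. Copies of at least 95% identity over 200 or more bases and 0.5 or more of the copy's length numbered 79, for 7 of the 40 genes. Gapdh had 71 of them, which held 4.64% and 4.11% of the summed TPM of Gapdh and its copies in replicates 1 and 2. For Pgam1, the identical Pgam1-ps2 held 12.5% and 24.9%. Pgk1 had copies with 3.29% and 5.47%, and for Eno1, Gpi1, Pdhb and Ldhb the share was below 2% in both libraries. The levels of Gapdh, Pgam1 and Pgk1 are uncertain by at least these shares.

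All 7 pentose phosphate genes were at 10 TPM or more in both libraries. Pgls, the lactonase of the oxidative branch, was at 43.3 TPM in replicate 1, against 62.2 TPM in replicate 2, and Pgd, which makes NADPH there, was at 27.8 and 27.8 TPM. The non-oxidative branch held the highest genes of the pathway: Tkt, transketolase, was at 143 and 133 TPM, and Taldo1, transaldolase, was at 113 and 143 TPM. Rpia, the isomerase that yields ribose phosphate, was at 59.2 and 59.7 TPM, and Rpe, the epimerase beside it, was the lowest of the 7 at 14.0 and 20.0 TPM. Prps1, which turns ribose phosphate into the nucleotide precursor PRPP, was at 35.8 and 45.6 TPM, and Tktl1 and Tktl2, relatives of transketolase, had 0 counts in both libraries.

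All 14 genes of pyruvate dehydrogenase and the citrate cycle were at 10 TPM or more in both libraries. Pdha1 and Pdhb, the alpha and beta subunits of the first enzyme of pyruvate dehydrogenase, were near each other, with a TPM ratio of 1.06 (0.995 to 1.14) in replicate 1 and 1.10 (1.05 to 1.15) in replicate 2. Pdha1 was at 44.5 and 59.1 TPM, and Pdhb was at 41.8 and 53.8 TPM. Cs, citrate synthase, was at 94.2 TPM in replicate 1, against 120 TPM in replicate 2. The NAD-dependent isocitrate dehydrogenase has a catalytic subunit from Idh3a, at 46.3 and 59.6 TPM, and further subunits from Idh3b, at 82.0 and 113 TPM, and Idh3g, at 89.7 and 130.3 TPM. Idh3a was below Idh3b in both libraries, by a TPM ratio of 0.565 (0.532 to 0.5996) and 0.526 (0.506 to 0.546). Transcripts not typed as coding held 37.8% and 19.7% of the Idh3b TPM, and 14.2% and 37.5% of the Idh3g TPM. Coding transcripts were at 51.0 and 91.0 TPM for Idh3b, and at 77.0 and 81.4 TPM for Idh3g. By coding transcripts Idh3a was thus still below Idh3b, but closer to it than the ratios above give. Idh2, the mitochondrial NADP-dependent enzyme, was at 33.5 and 48.2 TPM, of which its coding transcript held 28.6 and 29.9 TPM. Idh1, its cytosolic partner, was at 2.37 and 5.92 TPM.

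The later steps lay in the same range. Ogdh and Dlst, subunits of the oxoglutarate dehydrogenase complex, were near each other by gene TPM. Ogdh was at 52.4 TPM and Dlst at 60.7 TPM in replicate 1, and they were at 58.8 and 71.2 TPM in replicate 2. The coding transcripts of Ogdh were at 44.6 and 45.5 TPM in replicates 1 and 2, further below Dlst, whose TPM was all on a coding transcript. Suclg1, the alpha subunit of succinyl-CoA ligase, was at 41.2 and 46.5 TPM. Its ATP-forming partner Sucla2 was at 22.5 and 30.9 TPM and the GTP-forming partner Suclg2 at 22.8 and 34.9 TPM. By gene TPM the partners were thus close to each other, at a ratio of 0.990 (0.903 to 1.09) and 0.886 (0.836 to 0.939). The coding transcripts of Sucla2 were lower, at 18.6 and 23.4 TPM, and those of Suclg2 were not read apart. By expected counts, without length correction, Sucla2 over Suclg2 was 0.758 and 0.686. Fh1, fumarase, was at 53.4 and 46.8 TPM. A transcript of 542 bases took 53.7% and 50.7% of the Fh1 TPM, but 18.8% and 13.5% of its counts. The Fh1 transcript of 2636 bases was at 18.7 TPM in replicate 1, against 23.05 TPM in replicate 2. Mdh2, the mitochondrial malate dehydrogenase, was at 183 TPM in replicate 1, against 207 TPM in replicate 2, the highest of the 14 in both. Transcripts not typed as coding held 56.3% and 50.4% of the Mdh2 TPM, and its coding transcript, at 79.9 and 102 TPM, was below the single transcript of Cs, at 94.2 and 120 TPM. Mdh1, the cytosolic enzyme of the malate-aspartate shuttle, was at 34.4 and 70.3 TPM.

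A further 70 genes of these pathways were read as context, and 25 of them (35.7%) were at 10 TPM or more in both libraries, while 16 had 0 counts in both. Among the 10 highest by mean TPM were Sdhd, Got2, Sdha, Sdhb, Sdhc, Mpc1, Acly, Prps1 and Dld. The 4 subunits of succinate dehydrogenase ranged from 61.6 to 104 TPM in replicate 1, against 81.7 to 128 TPM in replicate 2. Got2, the mitochondrial aminotransferase of the malate-aspartate shuttle, was at 87.3 and 96.7 TPM, Dld, a subunit shared by several dehydrogenase complexes, was at 35.5 and 44.0 TPM, and Acly, which exports citrate carbon to acetyl-CoA, was at 47.4 and 47.0 TPM. Mpc1, a subunit of the mitochondrial pyruvate carrier, was at 50.6 and 71.7 TPM. Of 7 genes of gluconeogenesis, 2 were at 10 TPM or more in both libraries: G6pc3, a widely expressed glucose-6-phosphatase, at 29.6 and 43.9 TPM, and Pck2, the mitochondrial PEP carboxykinase, at 21.6 and 30.9 TPM. Fbp1, Fbp2 and G6pc had 0 counts in both.

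Most members had similar levels in both libraries. Differences are log2(TPM + 1), replicate 1 minus replicate 2, which understates the change of low genes, and a gene was called apart at 2-fold, 1 on that scale. Of 39 members with a mean of 1 TPM or more, 4 (10.3%) were 2-fold apart, against 11.3% of 11438 genes, so the share was near that of all genes. Pkm and Ldhb were higher in replicate 1, where 4.35% of all genes were called, and Hk2 and Mdh1 were higher in replicate 2, where 6.92% were. Only Mdh1 of the 4 was above 10 TPM in both libraries. By the TPM of coding transcripts alone 3 of the 39, Pkm, Ldhb and Pfkp, were 2-fold apart, against 8.05% of 10005 genes. The median difference was -0.19 over the 39 members and -0.18 over all genes, and 32 of the 39 (82.1%) were higher in replicate 2, as were 7556 of 11438 genes (66.1%). With TMM factors, which scale counts between libraries to CPM without use of length, the medians were -0.04 over members and -0.01 over all genes. On that scale 22 of the 39 (56.4%) were higher in replicate 2, as were 5830 of 11438 genes (51.0%). The count in each direction thus depended on the scale, for members as for all genes. Protein-coding nuclear genes held 401315 and 455585 TPM in replicates 1 and 2. With TPM rescaled over those genes, length correction kept, the median over all genes was -0.01. Among the 33 genes at 10 TPM or more in both, 30 were within 1.5-fold on the log2(TPM + 1) scale. The ranks of the 40 genes in the libraries had a Spearman's rho of 0.971, across genes that are not independent replicates. Neither value was computed over all genes, so neither can be read as particular to the members.

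Pkm differed by 1.03 on the log2 scale, and its TPM ratio of replicate 1 over replicate 2 was 2.34 (2.01 to 2.72). Ldhb differed by 1.39, with a ratio of 3.71 (2.68 to 5.16), and its effective length was 804 bases in replicate 1 and 1138 bases in replicate 2. In CPM with TMM factors, which use no length, Pkm was at 14.6 and 5.50 and Ldhb at 3.47 and 1.18, so both remained higher in replicate 1. Hk3, with 70 counts in replicate 1 and 0 in replicate 2, and Pgam1, with a TPM ratio of 1.83 (1.65 to 2.02), leaned the same way. The 15 neutrophil and monocyte markers moved with them, at 1937 TPM in replicate 1, against 8.67 TPM in replicate 2, and their part in these differences was not tested.

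Hk2 differed by -1.43 and Mdh1 by -1.01 on the log2 scale, and for both the effective length moved with the difference. The effective length of Hk2 was 5377 bases in replicate 1 and 2636 bases in replicate 2, where 55.1% of its TPM but 8.95% of its counts lay on a noncoding transcript of 594 bases. In CPM with TMM factors Hk2 was at 2.36 and 5.90, and remained higher in replicate 2. Its coding transcript alone was at 0.56 and 1.44 TPM, a difference of -0.65 on the log2 scale, which was not called. The effective length of Mdh1 was 1857 bases in replicate 1 and 1301 bases in replicate 2, where a transcript of 549 bases took 32.8% of its TPM, against 8.21% in replicate 1. In CPM with TMM factors Mdh1 was at 50.1 and 64.0, less than 1.5-fold apart, so it was not called on that scale. Bpgm also differed less in CPM, with a TPM ratio of replicate 1 over replicate 2 of 2.03 (1.72 to 2.41) and effective lengths of 1220 and 2054 bases, but 8.40 and 6.19 CPM. The 10 B-lineage markers were higher in replicate 2 as Hk2 was, at 10.1 TPM in replicate 1, against 145 TPM in replicate 2, and their part in that difference was not tested. Gapdh, the highest gene, had a TPM ratio of replicate 1 over replicate 2 of 0.590 (0.576 to 0.604).

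**Figure D4:**
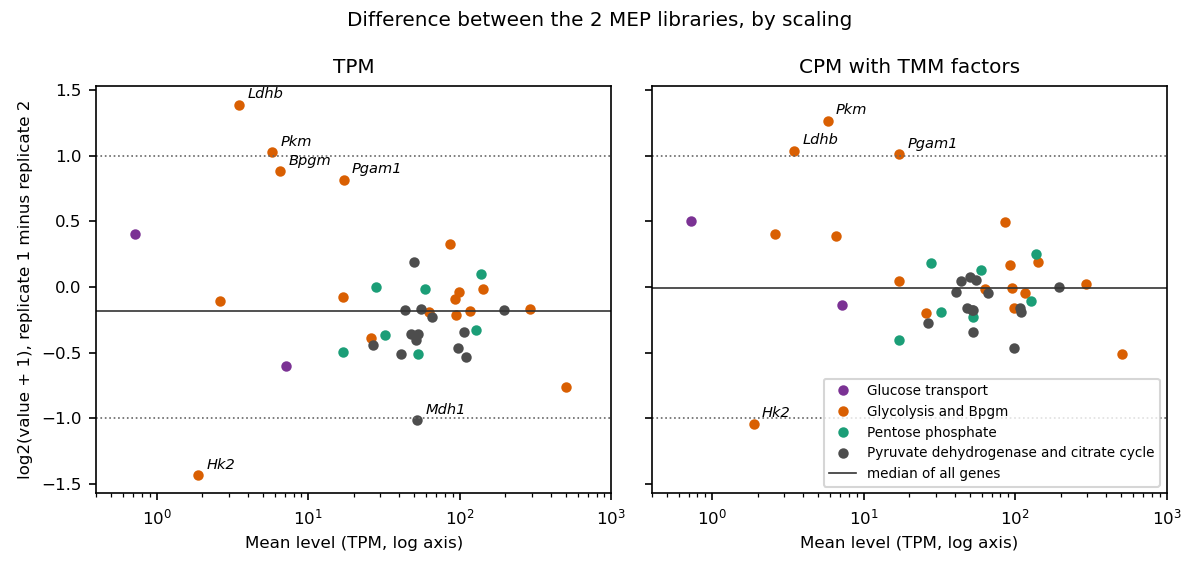
Difference between MEP libraries for each of the 40 genes, as log2(value + 1), replicate 1 minus replicate 2, against mean level in TPM on a log axis, in TPM (left) and in CPM with TMM factors (right), with points coloured by pathway, dotted lines at 2-fold and a solid line at the median of all genes. Pkm, Ldhb and Hk2 lie past the 2-fold lines on both scales, Mdh1 only in TPM and Pgam1 only in CPM.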

How the data were processed

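Total RNA was sequenced from 2 libraries of 100 MEP cells. Per the deposited README, the authors counted reads on mm10 with the GENCODE M4 annotation. Their aligner and quantifier versions were not given in the sources used here, but the column names are those of RSEM. The deposited expected counts are estimated reads per feature and need not be whole, and the deposited TPM was scaled by the authors over all features, ribosomal RNA included. Gene names and positions were looked up in GENCODE M21 (GRCm38) by identifier without version.

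Members and gene lists were chosen with earlier results of these data known. Ratios have exact 95% Clopper-Pearson intervals from rounded expected counts, and a count of 0 allows up to 3 counts; both cover counting error alone, because reads without molecular identifiers are not separate molecules. No p-value was computed, because 2 libraries of 1 group leave nothing to test. All 40 members may be named; values are given for the isoenzyme families, the 5 highest genes of each pathway and genes below 10 TPM or 2-fold apart, and of the other 70 for isoenzyme partners and the 10 highest. Pck2, G6pc3, Fbp1, Fbp2 and G6pc were named after their values were seen. Values of some genes that these rules take in, a member among them, are not reported here; counts, medians and sums include them.

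Rounded expected counts were scaled with TMM factors (edgeR 4.0.16) or DESeq2 1.42.0 size factors in R 4.3.3. Copies were sought with blastn 2.17.0 at word size 28. Other steps used Python 3.11.15, numpy 2.4.6, pandas 2.3.3, scipy 1.17.1 and matplotlib 3.10.9.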

Additional observations from a re-analysis of the deposited data

How the results depend on the processing

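No ratio between isoenzymes crossed 1 under its alternatives; counts, medians and shares have no direction. Of 118 alternatives run, 86 kept both libraries, and 67 of these stayed within the spread between libraries, or within 1.5 times for a count. Among the 67 are the additions of near-identical copies, most of which left the value unchanged. The number of genes at 10 TPM or more in both libraries, 33, was 18 at a minimum of 50 TPM. TPM was also rescaled over protein-coding nuclear genes, which takes all other features, ribosomal RNA among them, out of the total. The medians were then 9.16 TPM for transport, 147 for glycolysis, 119 for pentose phosphate and 127 for citrate cycle genes, as mean of both libraries. CPM without length correction gave 10.9, 77.6 and 84.4 for transport, glycolysis and citrate cycle with TMM factors, and the same values with DESeq2 size factors, so the citrate cycle median was then above that of glycolysis. Leaving out transporters below 1 TPM gave a median of 7.19 TPM, since only Slc2a3 is left. The ratio of Pfkp over Pfkl was 0.199 with posterior mean TPM, and 1 gene, Mdh1, was 2-fold apart at a mean of 10 TPM or more, since fewer genes enter. The M2 share of Pkm was 96.8% with posterior mean TPM. By expected counts, the upstream first exon share of Pklr was 13.7% and that of the leading Hk1 transcript was 51.0%, as counts follow transcript length.

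Leaving out either library gives the value of the other, which lies within 1 SD of the mean of 2 by construction and so says nothing of stability; it moved the ratio of Hk1 over Hk2 between 31.9 and 157, that of Ldha over Ldhb between 50.3 and 209, that of Pkm over Pklr between 0.0348 and 0.0836, and that of Slc2a1 over Slc2a3 between 0.0541 and 0.175. Which genes were 2-fold apart also depended on scale: Pkm and Ldhb were called in 9 of 10 settings and Hk2 in 8, Mdh1 was not called after rescaling, TMM, DESeq2 or centring on the median of all genes, Pgam1 was called with TMM, DESeq2 or rescaling, and Bpgm with a pseudocount of 0.1, rescaling or centring. The next 2 alternatives were chosen after seeing the data. Adding copies of 90% identity moved no median or ratio beyond the spread. Only the glycolysis median and the ratio of Ldha over Ldhb changed at all, so for the others this says nothing of stability. With the TPM of protein-coding transcripts only, Pfkl over Pfkm was 0.550 and Pfkp over Pfkl was 0.0541, and Pkm, Ldhb and Pfkp were 2-fold apart, while Hk2 and Mdh1 were not. No paired analysis was possible because the study has 1 group. With 34 to 97 counts, Slc2a1, Hk2 in replicate 1 and Ldhb have the widest intervals.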

Other observations

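The promoters of the 40 genes were mostly rich in CpG. Of 38 genes with a RefSeq window of 250 bases before a start, 29 (76.3%) had at least 1 window with a GC content of 50% or more and a ratio of observed to expected CpG of 0.6 or more, against 46.7% of 16317 protein-coding nuclear genes. The 9 without one were Hk1, Pfkl, Pfkm, Gapdh, Pklr, Slc2a1, Rpe, Idh3b and Fh1, and Pklr had the lowest CpG ratio of the 38, at most 0.271 in either window. Median levels were 53.4 and 46.8 TPM for these 9 genes in replicates 1 and 2, and 44.5 and 59.7 TPM for the 29 others. The letters ACGTG, the core of the hypoxia response element, were found on either strand in 12 of the 38 genes (31.6%), against 20.4% of 16317 genes. The 12 were Slc2a1, Hk2, Pfkm, Aldoa, Pgk1, Pgam1, Pkm, Ldha, Pdhb, Idh3g, Ogdh and Mdh1. The E-box CACGTG, which contains ACGTG, was found in 3 (7.89%), Ldha, Pfkm and Ogdh, against 7.88%. Genes with several windows have more chances of a match: the 38 genes had 55 windows and the 16317 genes had 19931. Both ACGTG and CACGTG hold a CpG themselves, and the shares were not adjusted for the CpG content or the number of windows.

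Of the 40 genes, 8 (20.0%) lie on chromosome 6, where 5.04% of protein-coding nuclear genes lie: Slc2a3, Hk2, Tpi1, Gapdh, Ldhb, Bpgm, Rpia and Suclg1.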
